A study of Saccharomyces cerevisiae with 4 samples.

Results

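The genes described here are 10 members of the seripauperin and DAN/TIR family of budding yeast: PAU4, PAU10, PAU13, PAU16, TIR1, TIR2, TIR3, TIR4, DAN1 and DAN4. They are 10 of the 5656 genes that the arrays report through a probe set annotated to that gene alone, and 10 of 31 genes of the family in the R64 annotation. The PAU members were selected on their measured signal in the nab3-11 mutant at 37 °C, and the set was put together with results of these arrays known. Values of the PAU members that use that array are therefore a description and support nothing by themselves. PAU16 had the lowest signal there of the 4 PAU members, 129, and PAU3, which was not selected, had 121, but no fixed threshold separates them, since PAU23 was not selected either and had 455.

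PAU genes encode seripauperins, small proteins related to the serine-rich TIR and DAN mannoproteins but poor in serine, and most of them lie near chromosome ends. TIR and DAN genes encode mannoproteins that are attached to the cell wall through a glycolipid anchor. In aerated cultures the DAN and TIR genes are largely repressed, by Rox1, Mot3 and the Tup1-Cyc8 corepressor among others, and without oxygen they are activated through the sterol-responsive factor Upc2. TIR1 and TIR2 are also known as cold shock genes. Nab3 binds short motifs in nascent RNA and, with Nrd1 and Sen1, ends the transcription of short non-coding RNAs.

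Total RNA was measured on 4 arrays, 1 for each group: the nab3-11 mutant held at 37 °C, the same mutant held at 25 °C, and a wild type strain held at either 25 °C or 37 °C. The mutant strain, 1099, carries nab3-11, a temperature-sensitive allele of NAB3, the wild type strain is numbered 1415, and the labels do not say whether the strains share a background. All cultures grew in the rich medium YPD and spent 2 hours at the stated temperature, and nothing in the labels describes their aeration. Each group is a single array, so every difference compares single arrays, has no error and no p-value, and is limited in precision by their number. The titles of the arrays were followed: the free-text descriptions of both wild type arrays name nab3-11 at 25 °C instead. On the wild type arrays the heat shock gene HSP12 had signals of 43.3 (25 °C) and 2747 (37 °C), and the Hsp70 gene SSA4 had 31.9 and 216. NRD1, whose transcript is itself under early termination by Nrd1 and Nab3, had 716 in the 37 °C mutant, 291 in the 25 °C mutant, 125 in the 25 °C wild type and 88.8 in the 37 °C wild type. NAB3 lay between 66.2 and 81.0 on all 4 arrays, and since the allele is no deletion this does not check the strain labels.

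Signals below are probe-set intensities in arbitrary units, each array scaled to a 2% trimmed mean of 150. Between 56.5% and 64.4% of the probe sets lay above the floor of 21.8 on each array. A gene counts as measured in a comparison when at least 1 of its arrays lies above that floor, and as higher or lower at a difference of 2-fold, which is 1 on the log2 scale. In bulk RNA, a change in how many cells express a gene cannot be told apart from a change in RNA per cell. Levels of different genes come from different probes and are not ranked.

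The PAU members had their highest signal in the 37 °C mutant, and the other 3 arrays lay close together. PAU4 had a signal of 443 in nab3-11 at 37 °C, 149 in nab3-11 at 25 °C, 130.2 in the 25 °C wild type and 164 in the 37 °C wild type. At 37 °C the mutant signal was 2.71-fold that of wild type. PAU10 had signals of 296, 78.1, 82.1 and 106 in the same order, a 2.78-fold difference between the strains at 37 °C. On its 3 lower arrays it thus stayed between 78.1 and 106.

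PAU13 had 477 in the 37 °C mutant and 169.5 in the 25 °C mutant, against 136 in wild type at both temperatures. It was 3.50-fold higher in the 37 °C mutant than in the 37 °C wild type and differed between the wild type arrays by 0.01 on the log2 scale. PAU16 had 129 in the 37 °C mutant and 46.6, 58.1 and 49.6 in the 25 °C mutant, the 25 °C wild type and the 37 °C wild type. It was 2.60-fold higher in the 37 °C mutant than in wild type, with the smallest difference of the 4 PAU members in that comparison. For each of the 4, the single mutant array at 37 °C lay above all 3 others.

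**Figure D1:**
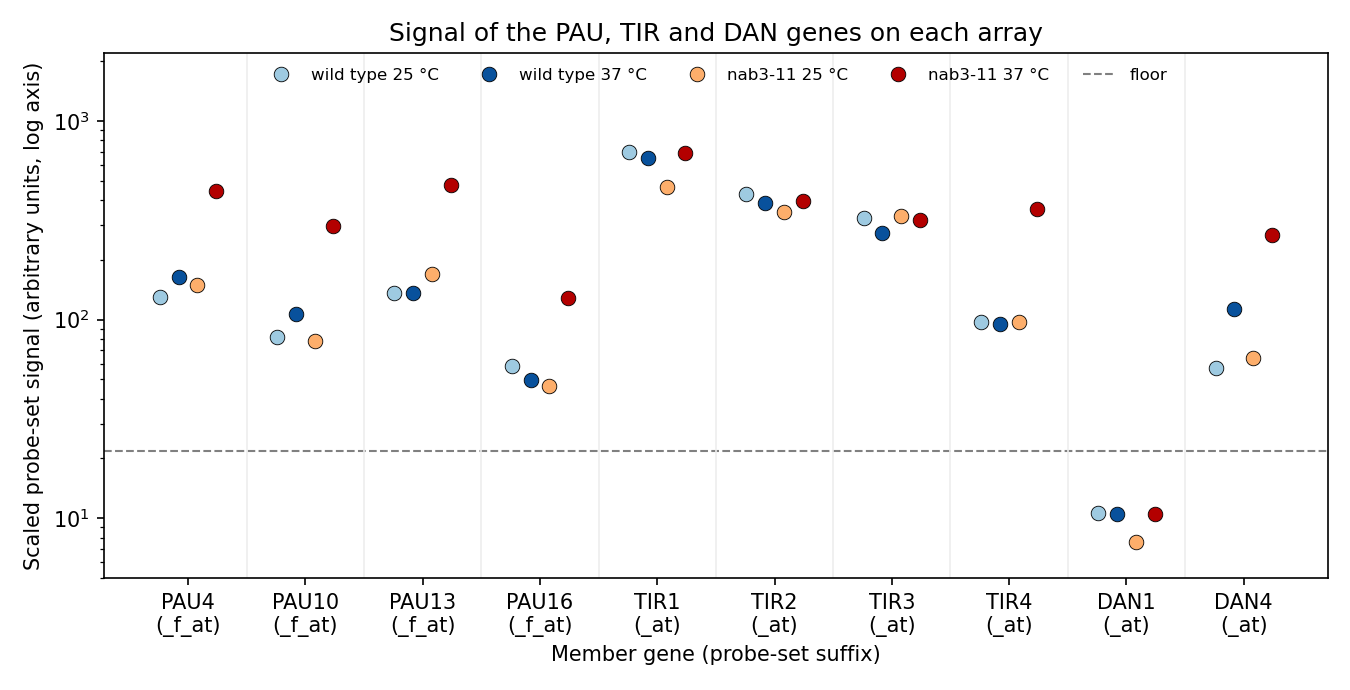
Scaled probe-set signal of the 10 member genes (arbitrary units, log axis) on each of the 4 arrays, with the probe-set suffix under each name and the floor of 21.8 as a dashed line. Each point is 1 array. The mutant at 37 °C stands above the other arrays for the 4 PAU genes, TIR4 and DAN4, the 4 arrays lie within 1.5-fold for TIR1, TIR2 and TIR3, and DAN1 lies below the floor throughout.

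The probe sets limit how far a PAU signal can be given to 1 gene. All 4 PAU members are read by probe sets with the suffix _f_at, which the manufacturer gives to sets whose probes match several family members, whereas the 6 TIR and DAN members have sets with the plain suffix _at. Beside its own set, PAU10 is named in the annotation of 5 shared sets, PAU13 in 5 and PAU4 in 1, and PAU16 in 0. Across the family the array carries 22 PAU probe sets, 10 annotated to 1 gene and 12 to several, and 21 of the 22 are _f_at sets. All 22 had their highest signal in the 37 °C mutant, the array on which the PAU members were selected. The _s_at set lay below the floor on every array, so its order of arrays carries little information. The share of all probe sets that were highest in the 37 °C mutant was not computed.

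Of the 6 PAU genes with a set of their own that are not members, 5 were at least 2-fold higher in the 37 °C mutant than in the 37 °C wild type. Over all measured genes 4.78% were, and the shares of _f_at sets outside the family are given below. PAU3 was 2.48-fold, PAU17 2.44-fold and PAU23 2.43-fold higher, and PAU19, the gene under the threshold, 1.99-fold. Of the 12 shared sets 11 were measured and 9 were higher, with a median log2 difference of 1.29 against 1.46 for the 4 members. A shared set annotated to PAU6, PAU20 and PAU18, the one with the largest difference, had 181 in the 37 °C mutant and 43.1 in the 37 °C wild type, a 4.20-fold difference. These sets measure overlapping sequences and are not independent of each other.

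Probe sets of the _f_at type outside the family were called higher more often than plain ones between the strains at 37 °C. Comparing the 37 °C mutant with the 37 °C wild type, 37 of 159 measured single-gene _f_at sets were higher, or 23.3%, against 177 of 4651 plain _at sets, or 3.81%. Within protein-coding genes the _f_at count was 7 of 97, or 7.22%, against 3.22% of plain sets, and in the other genes the _f_at count was 30 of 62, or 48.4%. Between the temperatures in wild type the order was the opposite, with 5.33% of _f_at sets and 11.2% of plain sets higher at 37 °C. The part of shared binding in the PAU values was not tested.

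The 4 TIR members did not share a pattern. TIR4, a cell wall mannoprotein gene, had a signal of 359 in the 37 °C mutant and of 97.8, 96.9 and 95.3 in the 25 °C mutant, the 25 °C wild type and the 37 °C wild type. Its 3 lower arrays thus lay within 1.03-fold of each other. The mutant at 37 °C was 3.77-fold higher than the 37 °C wild type and 3.67-fold higher than the 25 °C mutant. Among the 9 measured members the difference between the strains at 37 °C was largest for TIR4. TIR4 was read by a plain _at set, so for this gene the suffix names no other target.

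TIR1, a cold shock and anaerobic mannoprotein gene, had 694 in the 37 °C mutant, 464 in the 25 °C mutant, 695 in the 25 °C wild type and 654 in the 37 °C wild type. Here the 25 °C mutant was the lowest array, 1.50-fold below the 25 °C wild type, and at 37 °C the strains differed by 1.06-fold. TIR2, its close relative, had 398, 349, 431 and 386 in the same order of arrays. TIR3, another wall mannoprotein gene of anaerobic cells, had 318, 333, 326 and 272. No pairwise difference of TIR1, TIR2 or TIR3 reached 2-fold, and without replicates the order of their arrays is not separated from noise.

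The DAN genes differed from each other in whether they were detected at all. DAN1 lay below the floor on every array, at 10.5, 7.59, 10.7 and 10.5, so no fold is given. DAN4, which lies next to DAN1 and encodes a wall mannoprotein of anaerobic cells, had 267 in the 37 °C mutant, 64.0 in the 25 °C mutant, 57.0 in the 25 °C wild type and 114 in the 37 °C wild type. It was higher at 37 °C in both strains, by 4.18-fold in the mutant and by 1.99-fold in wild type, and 2.35-fold higher in the 37 °C mutant than in the 37 °C wild type. In wild type its log2 difference of 0.99 lay just under the threshold of 1, and fell to 0.49 when arrays were scaled to a common median.

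Counted together, 6 of the 9 measured members were higher in the 37 °C mutant than in the 37 °C wild type and 0 were lower, where 4.78% of 4770 measured genes were higher and 3.94% lower. The median log2 difference was 1.38 over the members and -0.05 over all genes. As the PAU members were selected on the mutant array at 37 °C, nothing is read from the share of higher members. The TIR and DAN members, read by plain sets, gave 2 of 5, TIR4 and DAN4, with a median of 0.23.

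At 25 °C no member differed 2-fold between the strains. Of the 9 measured members 0 were higher and 0 lower in the mutant, where 1.17% of 4282 genes were higher and 0.537% lower. The PAU members lay between -0.32 for PAU16 and 0.32 for PAU13 on the log2 scale. TIR4 differed by 0.01, DAN4 by 0.17 and TIR3 by 0.03, whereas TIR2 was at -0.30 and TIR1 at -0.58. TIP1, a family gene that is not a member and encodes an abundant wall mannoprotein, had 866 in the mutant and 1347 in the 25 °C wild type, a difference of -0.64. The largest shortfalls of the 25 °C mutant within the family were thus those of TIP1 and TIR1, both under 2-fold.

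In the mutant, 6 of 9 members were higher at 37 °C than at 25 °C and 0 were lower, against 15.7% of 4630 genes higher and 4.06% lower. The PAU members were selected on that 37 °C array, so nothing is read from the share of higher members. The TIR and DAN members gave 2 of 5, TIR4 and DAN4. DAN4 was 4.18-fold, PAU10 3.79-fold, TIR4 3.67-fold, PAU4 2.98-fold, PAU13 2.81-fold and PAU16 2.76-fold higher. All 6 other PAU genes with their own sets were higher too, by 3.13-fold (PAU15) to 6.40-fold (PAU23). Their median was 4.18-fold, against 2.89-fold for the PAU members, and the values of PAU15 and PAU17 are lower bounds. TIR1 differed by 0.58 on the log2 scale, TIR2 by 0.19, which turned to -0.33 with a common median, and TIR3 by -0.07. This comparison uses neither wild type array and so does not depend on their labels, but it shares the mutant array at 37 °C with the comparison between strains.

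In wild type, 0 of 9 members were higher and 0 lower at 37 °C, where 11.1% of 4650 genes were higher and 1.44% lower. This comparison does not use the mutant array on which PAU members were selected. The PAU members lay between -0.23 for PAU16 and 0.37 for PAU10, with PAU4 at 0.33. With a common median PAU4 and PAU10 turned to -0.18 and -0.13, and all genes shift with that scaling. The 6 other PAU genes with their own sets lay higher, between 0.52 for PAU19 and 1.29 for PAU23, and 2 of them, PAU23 at 2.44-fold and PAU3 at 2.05-fold, passed the threshold, though 0 did with a common median or quantile normalization. For PAU15 and PAU17 the wild type difference is a lower bound, since the 25 °C array lay below the floor. The ranges of the members and of the other 6 PAU genes did not overlap, but the 11 measured shared sets, from 0.08 to 2.32, overlapped both. Among them the 5 that name PAU10 and PAU13 lay between 0.44 and 2.32. The difference between these sets of probe sets was not tested. The TIR members lay between -0.26 for TIR3 and -0.02 for TIR4, all 4 below zero, while the median of all genes was 0.29.

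**Figure D2:**
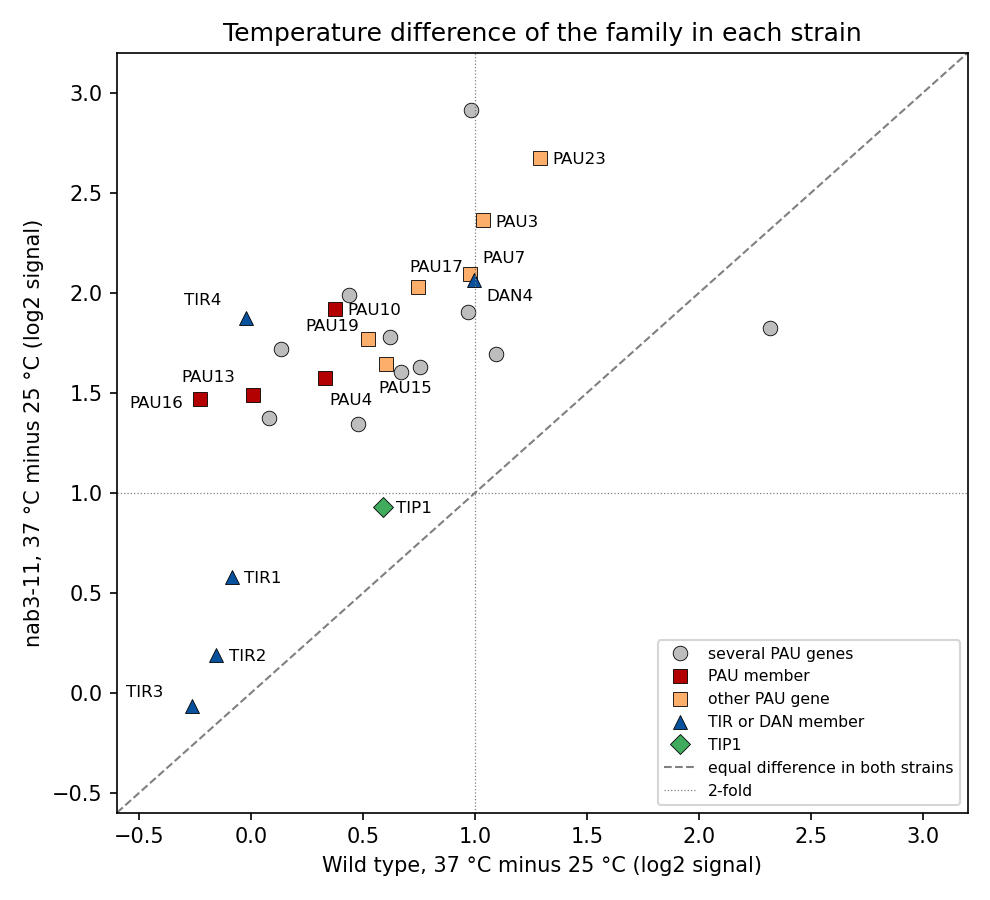
Difference in log2 signal between 37 °C and 25 °C in wild type (horizontal) and in nab3-11 (vertical) for the measured probe sets of the family, by kind of probe set. The dashed line marks equal differences in both strains and the dotted lines mark 2-fold. The 4 PAU members and TIR4 lie near zero in wild type and between 1.47 and 1.92 in the mutant, DAN4 and the other PAU genes are displaced on both axes (signals below the floor were raised to it), and TIR1, TIR2 and TIR3 lie near the lower left.

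The strain-by-temperature difference subtracts the temperature difference of wild type from that of the mutant. It was at least 2-fold higher for 6 of 9 members and lower for 0, against 4.47% and 5.45% of 4811 genes. The PAU members were selected on the 37 °C mutant array used here, so nothing is read from that share. The TIR and DAN members gave 2 of 5, TIR4 and DAN4. TIR4 had the largest value, 1.90 on the log2 scale, followed by PAU16 at 1.70, PAU10 at 1.55, PAU13 at 1.49, PAU4 at 1.24 and DAN4 at 1.07. TIR1 had 0.67, TIR2 0.35 and TIR3 0.20. For TIR1 the value combines a mutant array that was low at 25 °C with strains that differed by 0.08 at 37 °C. All 6 other PAU genes with their own sets were higher, with a median of 1.27, PAU15 and PAU17 with 25 °C signals raised to the floor. Of the 11 measured shared PAU sets 5 were at least 2-fold higher and 0 lower, with a median of 0.94. Of the same 11 sets 10 were above zero. The exception, annotated to 8 PAU genes, had 627 in the 37 °C mutant, 177 in the 25 °C mutant, 44.9 in the 25 °C wild type and 224 in the 37 °C wild type, and a value of -0.50. It was also the one PAU set that differed 2-fold between the strains at 25 °C, by 3.94-fold. Another shared set annotated to the same number of PAU genes had 633, 209, 180.4 and 286 on the arrays in that order, and a value of 0.94.

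The scaling of the arrays moved the temperature comparisons more than the strain comparison. With a common median in place of the trimmed mean, the median log2 difference of all genes between 37 °C and 25 °C went from 0.21 to -0.26 in the mutant and from 0.29 to -0.19 in wild type. Between the strains at 37 °C it went from -0.05 to -0.08. All temperature differences of members are therefore read against these medians. In the mutant, PAU13 and PAU16 came to 0.97 and 0.95 with a common median, just under the threshold, and PAU16 also missed it with quantile normalization. PAU4, PAU10, TIR4 and DAN4 stayed above it under every scaling. Between the strains at 37 °C the 6 higher members passed 2-fold under each of the 4 scalings and each of the 3 other floors tried, and TIR4 ranged from 1.70 to 1.99. At a 3-fold threshold TIR4 and PAU13 were higher between the strains at 37 °C, where 1.47% of genes were, and TIR4 and PAU16 in the strain-by-temperature difference, where 1.54% were. Within the mutant DAN4, PAU10 and TIR4 were 3-fold higher at 37 °C, where 6.37% of genes were, and within wild type 0 members were, where 3.14% of genes were.

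**Figure D3:**
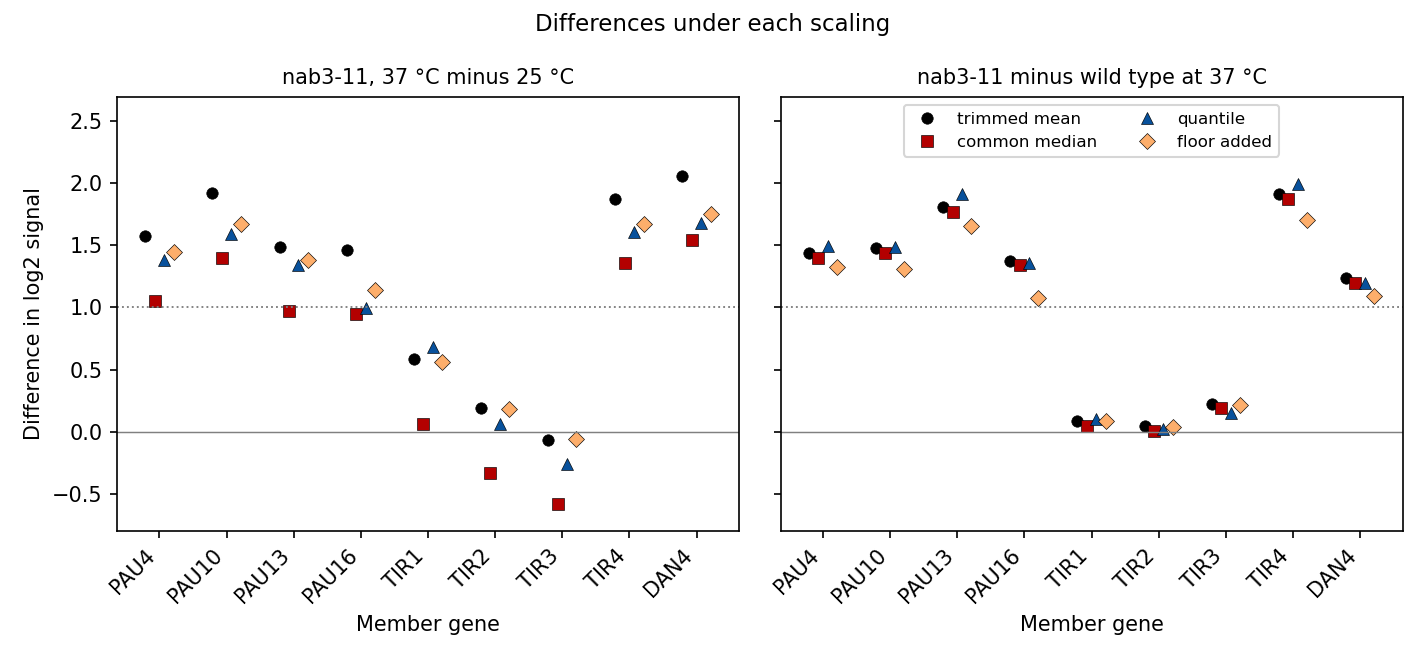
Log2 differences of the 9 measured members for nab3-11 at 37 °C against 25 °C (left) and for nab3-11 against wild type at 37 °C (right), under trimmed-mean, common-median and quantile scaling and with the floor added to every value. Each point is a difference between single arrays and the dotted line marks 2-fold. On the left the common median lowers every member, with PAU13 at 0.97 and PAU16 at 0.95, and on the right the settings lie close together.

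Of 11 known regulators of DAN and TIR genes 9 were measured, with a median of -0.16 between the strains at 37 °C. In the 37 °C mutant 0 were higher and 1 was lower than in the 37 °C wild type. Over all measured genes 4.78% were higher and 3.94% lower, so these counts do not set the list apart. UPC2, the activator, and MOT3, a repressor, lay below the floor on all arrays. ROX1, the hypoxic repressor, had 27.5 in the mutant and 30.7 in the 37 °C wild type, and ECM22, the relative of Upc2, had 125 and 109. TUP1 and CYC8, which encode the corepressor, differed by -0.24 and 0.35 on the log2 scale. SUT1, a regulator of sterol uptake, was at -0.36 and the histone deacetylase gene HDA1 at -0.32. The lower gene was HAP1, the heme-responsive regulator, at -1.29 through its brightest probe set, an _f_at set with 216 against 527. Its plain _at set had 60.0 in the mutant and 41.8 in the 37 °C wild type, the opposite order, while its other _f_at set had 134 and 304, so the plain set of HAP1 disagrees with both _f_at sets.

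Other genes known for higher expression at low oxygen had a median of -0.21 between the strains at 37 °C. Of 15 measured genes 1 was higher and 1 lower in the 37 °C mutant than in the 37 °C wild type. Over all measured genes 4.78% were higher and 3.94% lower, so these counts do not set the list apart. ANB1, the hypoxic isoform of the translation factor eIF5A, had 543 in the 37 °C mutant, 210.0 in the 25 °C mutant, 141 in the 25 °C wild type and 171 in the 37 °C wild type. It was 3.17-fold higher than in the 37 °C wild type, while HYP2, its near-identical aerobic copy, differed by -0.26, and probes of such a pair can share signal. COX5B, the hypoxic subunit isoform of cytochrome oxidase, was 2.13-fold lower, with 64.7 against 138. OSM1, a fumarate reductase gene, was at -0.78 and HMG2, an isoform of the sterol pathway enzyme HMG-CoA reductase, at 0.56. COX5B, CYC7, PDR11 and HEM14 were higher at 37 °C in both strains. COX5B was 2.71-fold higher in the mutant and at least 6.33-fold in wild type. PDR11, a sterol importer gene, was 2.88-fold higher in the mutant and 2.90-fold in wild type. Of the 15 genes 6 were higher at 37 °C in the mutant and 4 in wild type, against 15.7% and 11.1% of all genes. With a common median these counts were 2 and 3.

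The aerobic counterparts, the other wall mannoproteins and the sterol genes had medians near that of all genes. Over all measured genes 4.78% were higher and 3.94% lower between the strains at 37 °C. Counts of 0 in lists this short therefore do not set them apart from other genes. Of the 5 aerobic counterparts 0 were higher and 0 lower at 37 °C between the strains, with a median of 0.01, and the largest differences were those of COX5A (0.39) and HMG1 (-0.34). Of 14 other wall mannoprotein genes 0 were 2-fold higher and 0 were lower, and the median was 0.01. Among them SPI1, a stress-induced wall protein gene, was at 0.62 and FLO11, the flocculin of invasive growth, at 0.47, whereas YGP1 was at -0.65 and PST1, a gene of the cell wall integrity response, at -0.45. CWP2, an abundant wall mannoprotein gene of aerobic cells, had 3765 and 3627. Of 15 sterol synthesis genes 0 were 2-fold higher and 0 were lower, and the median was 0.05, and ERG26, at -0.73, and ERG25, at -0.48, were the largest differences.

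**Figure D4:**
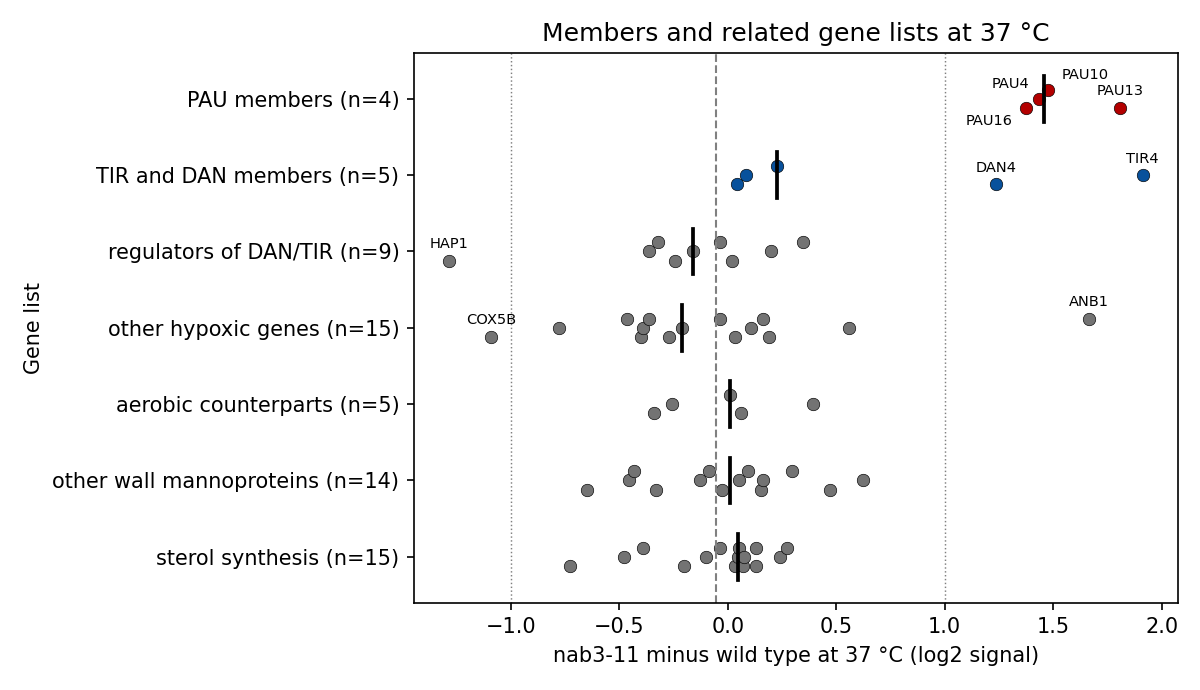
Log2 difference between nab3-11 and wild type at 37 °C for the measured members and for 5 related gene lists, 1 point for each gene, with the list median as a black bar, the median of all genes as a dashed line and 2-fold as dotted lines. The PAU members, TIR4 and DAN4 lie right of the upper line, ANB1 is the one gene of the other lists that does, and HAP1 and COX5B lie left of the lower one.

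The higher members lie on different chromosomes, and all of them except TIR4 lie near a chromosome end. In the gene order of the R64 annotation, 0 genes separate PAU16 from the nearer chromosome end, 1 separates PAU10, 4 separate PAU4 and 5 separate PAU13, and 10 and 11 separate DAN4 and DAN1. TIR3, TIR1, TIR4 and TIR2 lie 60, 101, 188 and 189 genes from the nearer end. TIR4 and TIR2 are neighbours, with differences between the strains at 37 °C of 1.91 and 0.04 on the log2 scale, and DAN4 and DAN1 are neighbours of which DAN4 alone was above the floor. The gene on the other side of TIR4, YOR008C-A, lay below the floor on all arrays. Next to PAU13, the siderophore transporter gene ARN2 differed by 0.95, with 121 against 62.9, and next to PAU10, YDR541C had 126 and 125. YKL222C, next to PAU16, differed by 0.13 and YLR460C, next to PAU4, by -0.34, both with signals near the floor. YJR151W-A, next to DAN4, had 27.4 in the 37 °C mutant and lay below the floor on all other arrays, so its difference of 0.33 is a lower bound. Among neighbours outside the family above the floor on both 37 °C arrays, YNCE0012W next to TIR1 had the largest difference, 1.32, with 126 against 50.3. TIR1 itself differed by 0.08. The neighbours were chosen after the members' values had been seen.

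By the distance between centred log2 profiles over the 4 arrays, the genes outside the family closest to the median of the 4 PAU members were PKP1, YIL092W, YHR033W, YIL089W and SNR37, at distances of 0.08 to 0.16. YIL092W and YIL089W lay below the floor on 2 arrays and SNR37 on 3, so their distances depend on values raised to it. PKP1, a mitochondrial protein kinase gene, had 216, 69.1, 59.6 and 73.0 on the arrays in the order used above. TIR4 itself lay at 0.27 from that median, inside the 0.10 to 0.46 of the 4 PAU members, whereas DAN4 was at 0.63 and TIR1, TIR2 and TIR3 between 1.34 and 1.45. The genes closest to the median of the 5 measured TIR and DAN members were SNA2, EMC6, RPA14, POP1 and SUM1. That median follows TIR1, at a distance of 0.14, and not TIR4, at 1.45, so it does not represent the set. With only 4 arrays such likeness is a description.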

How the data were processed

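The deposited values are one probe-set intensity per array on a linear scale, which the authors computed using MAS5 and GCOS 1.1.1, per the submitters' processing notes. Every array already had a trimmed mean near 150. Per the labels' protocols, RNA was labelled after oligo(dT)-primed amplification, which favours polyadenylated RNA. Of 9335 probe sets, 60 were controls and 6504 had exactly 1 gene in the platform annotation, matched by gene ID to R64 for current names and gene order. No coordinates or sequences were used here.

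Arrays were rescaled to a 2% trimmed mean of 150, signals below the 40th percentile (21.8) were raised to it, and log2 differences were taken. Low genes are thereby understated. For genes with several sets the brightest by mean was used. With 1 array per group no test was made, and genes were called at 2-fold over all genes. The 5 comparisons were run under 10 alternatives.

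Members, gene lists and rules were chosen with earlier results of these data known. Named genes are the members, the 4 listed genes per list that differed most at 37 °C, and the 5 genes closest in profile. Shared sets, suffix classes and neighbours were added after seeing the values, as were genes named beyond that rule. Scripts ran in Python 3.11.15 (numpy 2.4.6, scipy 1.17.1, pandas 2.3.3; figures by matplotlib 3.10.9).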

Additional observations from a re-analysis of the deposited data

Results flagged for a closer look

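With trimmed-mean scaling the temperature difference had opposite signs in the strains for 4 members, which was not tested because each rests on single arrays. On the log2 scale TIR4 differed by 1.88 in the mutant and by -0.02 in wild type, PAU16 by 1.47 and -0.23, TIR1 by 0.58 and -0.09, and TIR2 by 0.19 and -0.16. Differences as small as those of TIR2 and of wild type are within what a change of scaling moves. With a common median, TIR2 was at -0.33 in the mutant and -0.66 in wild type, no longer opposite. PAU4, PAU10 and PAU13 became opposite with that scaling, at 1.05, 1.40 and 0.97 in the mutant and -0.18, -0.13 and -0.50 in wild type. Which members have opposite signs thus depends on the scaling.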

How the results depend on the processing

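No paired analysis was possible because each group has 1 array. Of 394 recomputed differences of single members, 0 moved by more than 1.5-fold, 0 of the called ones changed sign, and 15 crossed the call threshold, 11 of them under the 3-fold threshold. Shifts under 1.5-fold are not counted as moves. A common median lowered the temperature difference of every measured member in the mutant, that of PAU4 from 1.57 to 1.05. With unique probe sets only, which leaves out every PAU gene, the median log2 difference of members was 0.23 between the strains at 37 °C and 0.58 between the temperatures in the mutant; 2 members and 2 family genes were higher in each of these and in the strain-by-temperature difference, and 0 family genes were higher at 37 °C within wild type. At 3-fold, 2 members and no other family gene were higher between the strains at 37 °C (TIR4 and PAU13), against 1.47% of all genes. In the strain-by-temperature difference 2 were (TIR4 and PAU16), against 1.54%. Within the mutant 3 members and the 6 other PAU genes with their own sets were higher at 37 °C, against 6.37%. Within wild type 0 family genes were, against 3.14%. The 2 family genes higher at 37 °C within wild type came to 0 with a common median or quantile normalization and to 1 with the floor at the 55th percentile or added. With the floor added, 7 family genes in place of 12 were higher in the strain-by-temperature difference, and DAN4 came to 0.97 there. Of 736 recomputed counts of genes in lists, 67 moved by more than 1.5-fold. Without the wild type arrays only the comparison within the mutant could be made, and its member differences stayed the same. Signals near the floor limit what can be said of DAN1, UPC2 and MOT3.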

Other observations

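The cold shock genes, a list that includes TIR1, TIR2 and TIP1, had 0 of 7 higher and 0 lower between the strains at 37 °C, with a median of -0.28 on the log2 scale. Over all measured genes 4.78% were higher and 3.94% lower, so these counts do not set the list apart. NSR1, a nucleolar protein gene, had the largest difference, -0.93, with 346 in the mutant and 660 in the 37 °C wild type. LTE1 was at -0.36 and BFR2 at -0.28. TIP1 had 1650 in the 37 °C mutant, 866 in the 25 °C mutant, 1347 in the 25 °C wild type and 2027 in the 37 °C wild type.

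The genes closest in profile to TIR4, a comparison added after its values were seen, were YMR105W-A, FLO1, SNR37, YOR072W-B and YIL092W. FLO1, a flocculin gene that encodes another cell wall mannoprotein, had 87.6 in the 37 °C mutant and lay below 1 unit on the other 3 arrays, under the floor. YMR105W-A and SNR37 also lay below the floor on those 3 arrays, and YOR072W-B and YIL092W on 2 of them, so the likeness of all 5 to TIR4 depends on values raised to the floor.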
